A study of Mus musculus with 10 samples.

Results

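Adipocytes mark their RNA with a small group of transcripts for lipid storage and hormone secretion, and this group was followed across 10 arrays of mouse mediastinal T cell lymphoma. The group was defined by symbol, not by level: Adipoq, Cidec, Fabp4, Plin1, Plin4, Lpl, Car3, Cfd, Pparg and Retn. It was chosen with earlier results of these data known. Of these 10 genes, 9 had a probe set that the array annotation ties to a single gene symbol, with 1 probe set each, out of 19937 genes with such a probe set. No probe set was listed under Cfd (adipsin, a complement protease secreted by fat cells) in the annotation used, so Cfd is not analysed here. All 9 measured genes passed the filter on low values (a mean log2 intensity at or above the 40th percentile of all probe sets, 6.35), which left 12670 genes for testing. The mean of Adipoq lay close to that filter at 6.53, as did that of Plin1 at 6.74, and all 5 Adipoq values of the WASP-deficient group lay under it.

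The samples were primary tumours from untreated mice on a C57BL/6 background that carry the NPM-ALK transgene, a fusion kinase that drives T cell lymphoma. One group of 5 tumours came from mice with intact Wiskott-Aldrich syndrome protein (WASP, a regulator of actin assembly in blood cells), labelled WT, and the other 5 from mice lacking WASP, either homozygous females or hemizygous males. Both groups carry NPM-ALK, so there was no tissue without the oncogene. Tumours were taken when lymphoma developed, at 4 to 5 months of age. The promoter that drives the transgene is not given in the sources used here, and the sex of each animal is not labelled. Nothing in the labels gives the position of fat relative to the tumour, so the arrays report RNA of these genes within the dissected tissue and not where it lay. Fewer fat cells, less RNA per fat cell and, for some members, RNA of other cells cannot be told apart in such bulk samples.

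Fat cells store triglyceride in a large droplet coated by perilipins, take up fatty acids released from lipoproteins by lipoprotein lipase, and secrete hormones such as adiponectin. The nuclear receptor PPARG, together with C/EBP factors, switches this programme on. The mediastinum contains adipose tissue, and the thymus in which T cells develop is surrounded by it. Adipoq, Plin1, Cidec and Retn are known mainly from fat cells in the mouse and are called fat-restricted here. Fabp4 and Pparg are also made by macrophages and Fabp4 by capillary endothelium, Lpl and Plin4 by muscle and Lpl by macrophages, and Car3 by muscle and liver.

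Promoter sequence was examined because 7 of the 10 genes had an entry in the RefSeq promoter table (assembly GRCm38.p6), with 10 transcription starts among them. The 250 bases before each start were searched on both strands for the nuclear receptor motif AGGTCA, its direct repeat AGGTCANAGGTCA, the C/EBP site TTGCNNAA, the CCAAT box CCAAT and the TATA box TATAAA. The windows printed are the 3 that held a C/EBP match and that of Adipoq, the member whose groups did not overlap, with C/EBP and CCAAT matches in capitals, reading 5′ to 3′ toward the start. The first is Adipoq (chr16:23146286-23146535, plus strand), with 3 CCAAT matches beginning 34, 27 and 7 bases before the start. The others are Plin1 (chr7:79732777-79733026, minus strand), with C/EBP matches 187 and 58 bases before it, the second start of Cidec (chr6:113434765-113435014, minus strand), with 1 C/EBP match at 198, and the third start of Pparg (chr6:115421816-115422065, plus strand), with C/EBP matches at 215 and 16 and CCAAT matches at 144 and 22.
Adipoq: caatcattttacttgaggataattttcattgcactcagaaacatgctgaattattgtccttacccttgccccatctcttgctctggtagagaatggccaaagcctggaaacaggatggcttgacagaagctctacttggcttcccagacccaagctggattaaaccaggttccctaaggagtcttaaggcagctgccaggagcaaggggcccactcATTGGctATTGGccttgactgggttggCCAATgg
Plin1: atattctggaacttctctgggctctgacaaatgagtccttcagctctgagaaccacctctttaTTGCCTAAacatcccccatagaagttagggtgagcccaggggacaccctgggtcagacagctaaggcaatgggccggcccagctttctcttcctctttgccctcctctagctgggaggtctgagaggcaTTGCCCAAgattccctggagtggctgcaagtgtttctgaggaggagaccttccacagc
Cidec: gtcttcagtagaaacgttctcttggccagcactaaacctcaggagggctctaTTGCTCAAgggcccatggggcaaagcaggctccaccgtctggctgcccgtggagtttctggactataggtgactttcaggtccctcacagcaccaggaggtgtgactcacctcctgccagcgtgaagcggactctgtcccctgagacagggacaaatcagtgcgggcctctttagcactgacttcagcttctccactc
Pparg: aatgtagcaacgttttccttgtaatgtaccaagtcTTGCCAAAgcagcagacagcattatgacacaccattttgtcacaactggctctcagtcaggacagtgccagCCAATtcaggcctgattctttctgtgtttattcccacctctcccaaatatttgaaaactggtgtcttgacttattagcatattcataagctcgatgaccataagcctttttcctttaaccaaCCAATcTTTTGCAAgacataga
The C/EBP site was found before 3 of the 10 starts and in 9.56% of all 32851 windows of the same length in the table. The CCAAT box was found before 4 of the 10 starts, against 33.8% of all windows, AGGTCA before 2 (14% of all windows), the TATA box before 1 (12.4%) and the direct repeat before 0 (0.0335%). Each match describes letters in a window and not a bound site.

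All 10 arrays gave similar signal, with array medians from 116.7 to 122.7 on the linear intensity scale. Was, the gene disrupted in the WASP-deficient mice, was 9.11 to 9.34 (log2) in the WASP-intact tumours and 7.92 to 8.20 in the deficient ones. It was the only gene of 12670 to pass limma's test at a Benjamini-Hochberg adjusted p under 0.05, which is 0.00789% of genes. Xist, transcribed from the inactive X of females, was high (11.52 to 11.90) on WASP-intact arrays 1, 2, 4 and 5 and low (4.40) on WASP-intact array 3. It was low on all 5 deficient arrays (4.50 to 5.58), so Xist and genotype nearly coincide. The genotype differences of the members given below therefore cannot be told apart from differences between the sexes. The T cell surface gene Cd2 split the arrays across genotypes: it was 11.18, 11.30 and 11.52 on 3 arrays (intact 4, intact 5 and deficient 1), called Cd2-high, and 6.10 to 6.90 on the other 7, called Cd2-low. Cd3e, another T cell gene, was 12.06 to 12.59 on every array.

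Among the fat-restricted genes, Adipoq, the gene for the hormone adiponectin, measured 6.68, 6.60, 7.06, 7.56 and 7.42 (log2 intensity) on WASP-intact arrays 1 to 5. On WASP-deficient arrays 1 to 5 it measured 6.01, 6.35, 6.34, 5.81 and 5.45. Every intact array lay above every deficient array, with a gap of 0.25 between the groups. Plin1, the main droplet coat protein of fat cells, measured 6.28, 6.66, 7.04, 7.18 and 7.27 in the intact group and 6.82, 6.59, 6.78, 6.36 and 6.41 in the deficient group. The Plin1 groups overlapped, and the lowest array of all was an intact one. Cidec, which joins droplets into larger ones, measured 7.36, 7.33, 7.38, 8.04 and 8.06 in the intact group and 7.14, 7.34, 6.91, 6.65 and 6.82 in the deficient group. Intact arrays 4 and 5 stood above the rest, and the groups touched at a single pair of arrays. Retn, the gene for the fat hormone resistin, measured 7.55, 7.75, 7.01, 8.25 and 8.36 in the intact group and 7.13, 7.73, 7.32, 6.97 and 6.38 in the deficient group. Intact arrays 4 and 5 were again highest, and intact array 3 lay among the deficient arrays.

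**Figure D1:**
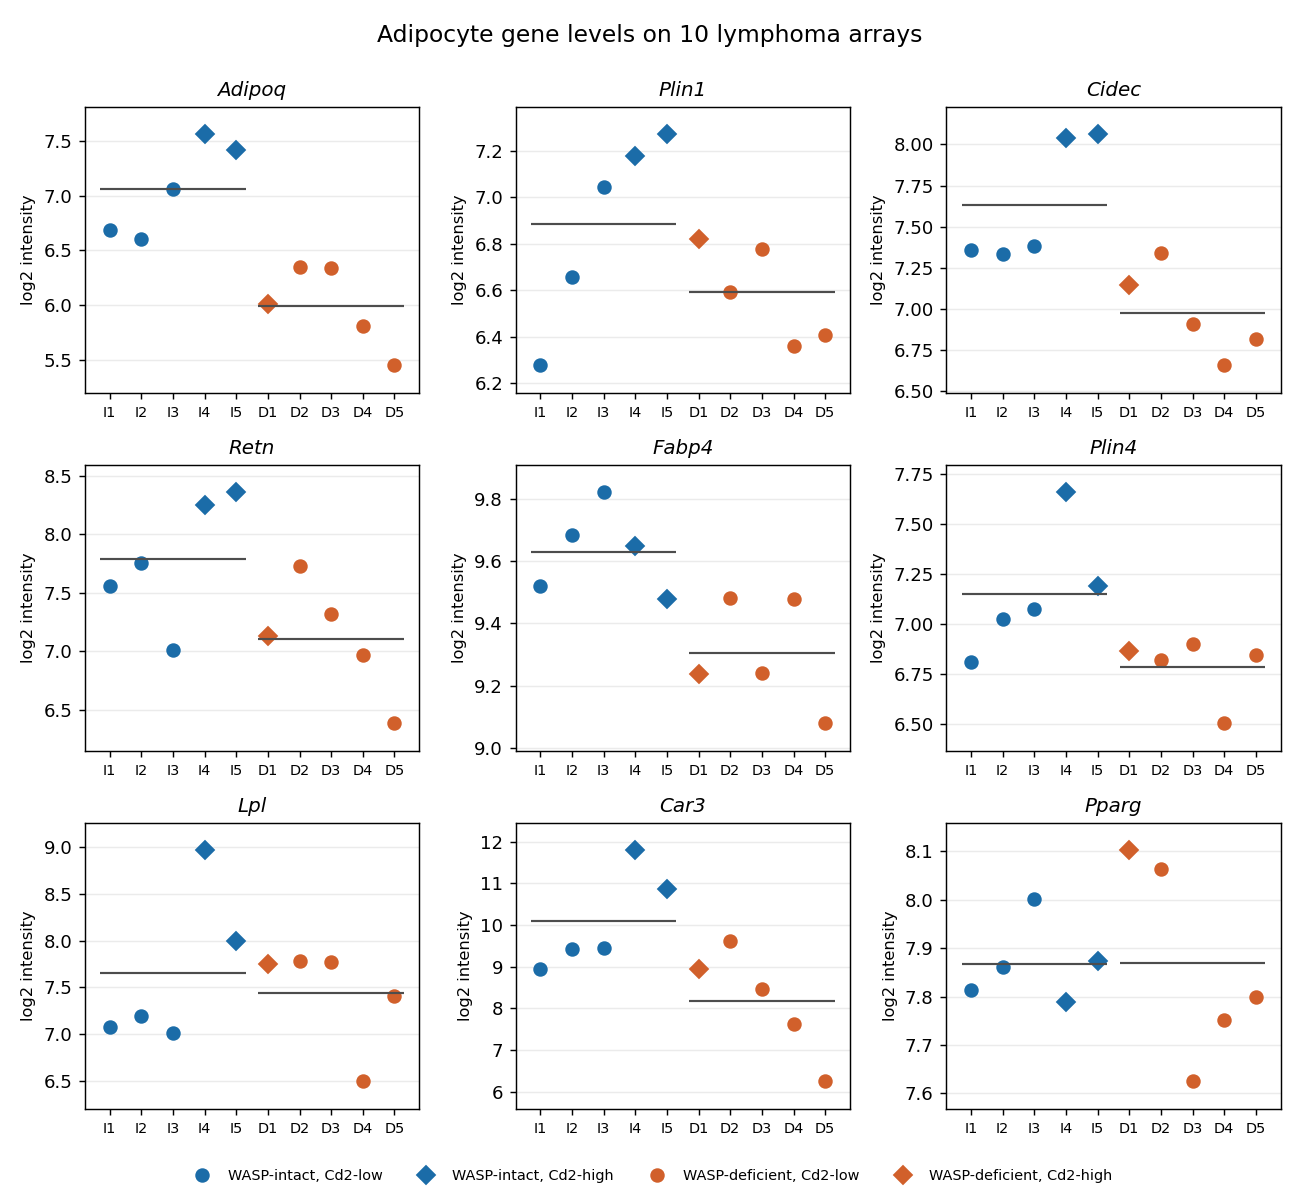
Log2 intensity of each measured member on the 10 arrays, WASP-intact and WASP-deficient, with each point 1 array (I, intact; D, deficient), diamonds for Cd2-high arrays and lines for the group means. WASP-intact arrays 4 and 5 are high for most members, and Adipoq is the member whose groups do not overlap.

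Of the genes that other cells also make, Fabp4, the fatty acid carrier of fat cells, macrophages and capillaries, measured 9.52, 9.68, 9.82, 9.65 and 9.48 in the intact group. It measured 9.24, 9.48, 9.24, 9.48 and 9.08 in the deficient group. The groups overlapped only between deficient array 2 and intact array 5, and intact array 3 was highest. Plin4, a coat protein of small droplets, measured 6.81, 7.02, 7.07, 7.66 and 7.19 in the intact group and 6.87, 6.82, 6.90, 6.50 and 6.84 in the deficient group. Intact array 4 was highest and deficient array 4 lowest, with overlap in between. Lpl, the enzyme that releases fatty acids from lipoproteins, measured 7.08, 7.20, 7.01, 8.96 and 7.997 in the intact group and 7.75, 7.79, 7.77, 6.50 and 7.41 in the deficient group. Intact arrays 4 and 5 exceeded every deficient array for Lpl, and the other 3 intact arrays lay below 4 of the 5 deficient ones.

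Car3, a carbonic anhydrase abundant in fat and muscle, had the widest range of the 9 members, 5.55 on the log2 scale, or 46.8-fold between the lowest and highest array. It measured 8.95, 9.42, 9.45, 11.79 and 10.86 in the intact group and 8.95, 9.61, 8.46, 7.62 and 6.25 in the deficient group. Intact arrays 4 and 5 were high and deficient arrays 4 and 5 low, with the remaining 6 arrays between them. Pparg, the receptor that switches on fat-cell genes, had the narrowest range, 0.48, with 7.81, 7.86, 8.002, 7.79 and 7.87 in the intact group and 8.10, 8.06, 7.63, 7.75 and 7.80 in the deficient group. The deficient group held both the highest and the lowest Pparg arrays.

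The comparison the design turns on is between tumours with and without WASP. Adipoq averaged 5.99 ± 0.38 in the deficient group and 7.07 ± 0.43 in the intact group (log2, SD, n = 5 each), a difference of -1.07 (SE 0.23). All 5 deficient values lay under the filter on low values, which Adipoq passed through its intact arrays, so the size of its difference is set against signal near the floor. For Adipoq the exact two-sided permutation test over arrays, which does not use the filter, gave 0.00794, the smallest p that 5 against 5 allows, and limma's adjusted p over all genes was 0.999. Cidec differed by -0.66 (SE 0.19, exact permutation p = 0.0159), Fabp4 by -0.33 (SE 0.10, exact permutation p = 0.0159), Retn by -0.68 (SE 0.30, exact permutation p = 0.0794) and Car3 by -1.91 (SE 0.70, exact permutation p = 0.0556). Plin4 differed by -0.36 (SE 0.15), Plin1 by -0.29 (SE 0.19), Lpl by -0.21 (SE 0.40, 95% interval -1.09 to 0.67) and Pparg by 0.00 (SE 0.10, interval -0.23 to 0.23). Of the 9 members, 0 passed limma's adjusted threshold of 0.05, with adjusted p-values of 0.999 or above.

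In direction, 8 of the 9 members were lower in the deficient group, all but Pparg, against 51.1% of all genes tested. At an unadjusted limma p under 0.05, 6 of 9 were lower, against 1.33% of all genes called lower at that threshold (366 genes reached it in either direction). The members were chosen with earlier results of these data known, and several of them moved together over the arrays. Counts of members, here and below, are therefore descriptions and not independent results. The median difference over the members was -0.36, beside -0.00 over all genes. Adipoq was 1 of 9 with all intact arrays above all deficient ones, against 0.245% of all genes. Its 5 deficient values lay under the filter on low values, so this gap too is set against signal near the floor. With WASP-intact arrays 4 and 5 both left out, a choice made after seeing the data, Car3 went from -1.91 to -1.09, Retn from -0.68 to -0.33, Cidec from -0.66 to -0.39, Plin4 from -0.36 to -0.18 and Plin1 from -0.29 to -0.07, and Adipoq from -1.07 to -0.79. In that setting Lpl turned from -0.21 to 0.35 and Fabp4 went from -0.33 to -0.37. Leaving out single arrays moved Plin1 to -0.44 (without intact array 1), Plin4 to -0.24 (without intact array 4) and Lpl to 0.12 (without intact array 4) or 0.03 (without deficient array 4). With the Xist level as a covariate, the Retn difference turned to 0.03, that of Lpl to 0.43 and that of Pparg to -0.15. Those of Adipoq, Cidec and Fabp4 were -1.02 (SE 0.39), -0.43 (SE 0.31) and -0.51 (SE 0.16) in that setting, with wider standard errors than without the covariate. Car3 was then -1.31 (SE 1.16), Plin1 -0.40 (SE 0.32) and Plin4 -0.26 (SE 0.25).

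**Figure D2:**
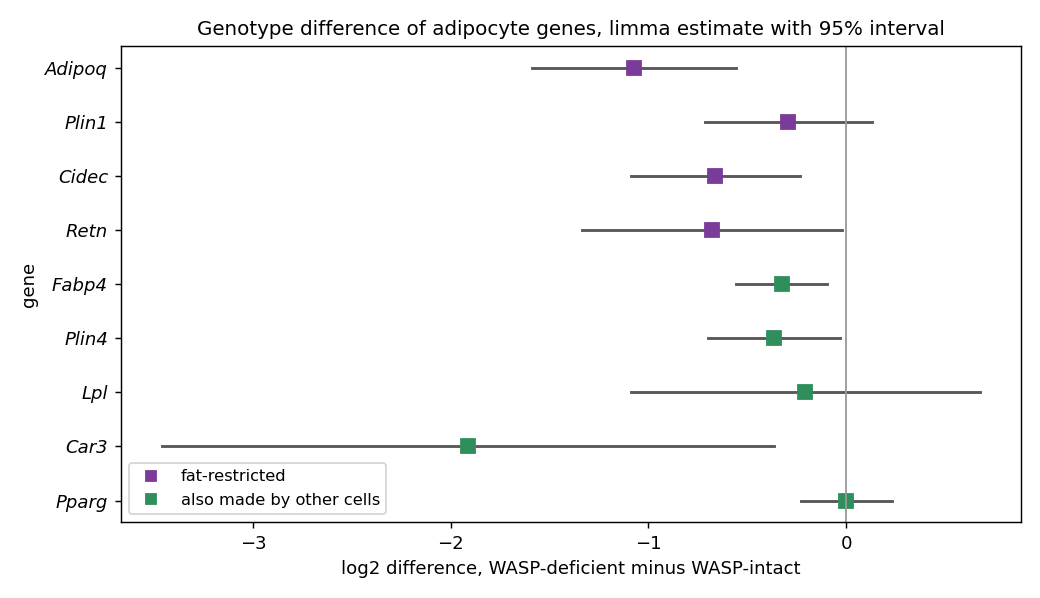
Deficient minus intact difference (log2) of each member with its 95% confidence interval, n = 5 arrays per group. Adipoq, Cidec, Fabp4, Retn, Plin4 and Car3 have intervals below 0, and those of Plin1, Lpl and Pparg include 0.

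The Cd2 groups were set by a measured value and are described with no test. For 0 of 9 members did the 3 Cd2-high arrays lie apart from the 7 Cd2-low arrays, against 30.5% of all genes. Intact arrays 4 and 5, the highest for most members, are both Cd2-high, but the third Cd2-high array, WASP-deficient array 1, sat among the Cd2-low arrays for Adipoq at 6.01, Cidec at 7.14, Retn at 7.13 and Car3 at 8.95. With WASP-deficient array 1 left out, 7 of 9 members had intact arrays 4 and 5 above all Cd2-low arrays, every member except Fabp4 and Pparg, against 18.2% of all genes. That is the omission of the Cd2-high array that went against this order. Leaving out any other single array gave 0 members apart across the Cd2 split, or 1 without WASP-intact array 3. Within the 7 Cd2-low arrays, 3 intact and 4 deficient, 2 of 9 members, Adipoq and Fabp4, had all intact arrays above all deficient ones, against 2.15% of all genes. The Adipoq values of the deficient arrays there were all under the filter, and those of Fabp4 lay above it on every array. Among these arrays the Adipoq means were 6.78 intact and 5.99 deficient, and the Fabp4 means 9.67 and 9.32.

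The members differed in how closely they moved together. Against the mean of the 4 fat-restricted genes over 10 arrays, Car3 followed closely (Pearson r = 0.965), then Plin4 (0.825), Lpl (0.656), Fabp4 (0.581) and Pparg (0.0997). The arrays fall into the Cd2 groups, so the same likeness was taken in the 7 Cd2-low arrays, where it was 0.971 for Car3, 0.767 for Fabp4, 0.636 for Plin4, 0.486 for Pparg and 0.204 for Lpl. These correlations are descriptions over arrays that share tissue and processing. The other 8 members were also set against Adipoq in the Cd2-low arrays: Cidec gave r = 0.838 (Spearman's rho 0.929, exact permutation p of r 0.0133, Benjamini-Hochberg adjusted over 8 relations 0.0532). Car3 gave r = 0.890 (rho 0.75, exact permutation p 0.00734, adjusted 0.0532), and 0.773 without the 2 arrays farthest from the Adipoq median. Fabp4 gave r = 0.820 (rho 0.929, exact permutation p 0.0270, adjusted 0.0720), but r was 0.320 without those arrays, so its r rests on them. No rho was recomputed without them. The other relations were weaker over the 7 arrays: r was 0.629 for Plin4, 0.613 for Retn, 0.595 for Plin1, 0.411 for Pparg and 0.0099 for Lpl, with adjusted exact permutation p-values of 0.206 to 0.983. Without the 2 arrays farthest from the Adipoq median, r was higher for Plin4 (0.831), Retn (0.833), Lpl (0.450) and Cidec (0.883). It was lower for Plin1 (0.131) and Pparg (0.220). After adjustment 0 of the 8 relations passed 0.05 by Pearson's r, and 2, those of Cidec and Fabp4, did by Spearman's rho (exact permutation, adjusted 0.0270 each). The permutation shuffled all 7 arrays without regard to genotype, so a gap between the genotypes by itself lowers these p-values. All Adipoq values of the deficient arrays lay under the filter on low values. These 7 arrays pool 3 intact and 4 deficient tumours between which Adipoq and Fabp4 did not overlap, and either genotype holds too few arrays for a correlation of its own, so the relations and the genotype gap cannot be told apart.

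**Figure D3:**
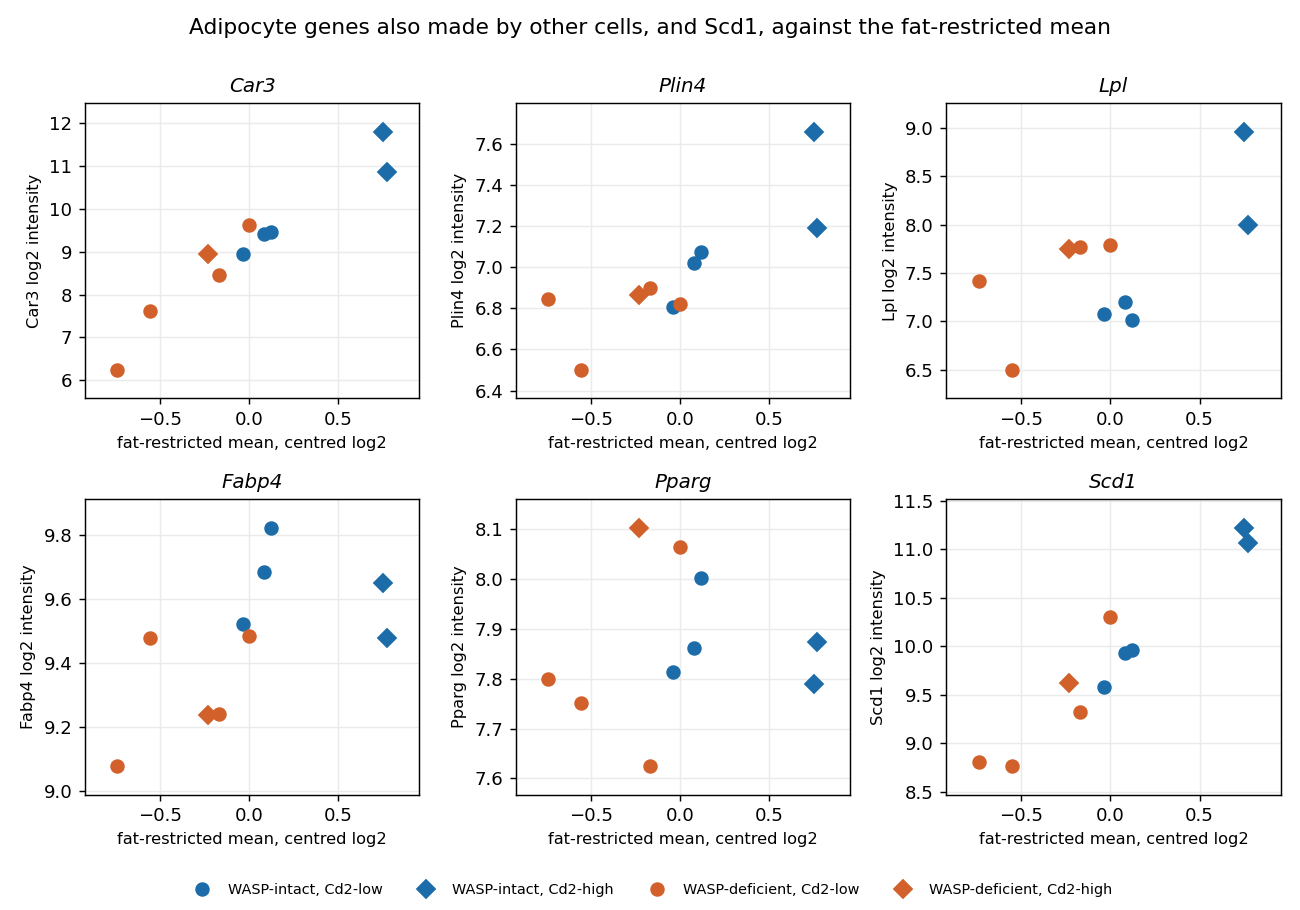
Log2 intensity of the 5 members that other cells also make, and of Scd1, against the mean of the 4 fat-restricted genes (centred log2), with 1 point per array, coloured by genotype and diamond-shaped for Cd2-high arrays. Car3 (r = 0.965) and Scd1 (0.966) climb with the fat mean, and Pparg (0.0997) shows no slope.

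Beyond the members, the gene whose pattern was closest to the fat-restricted mean, by Pearson r over 10 arrays, was Scd1, the desaturase that makes oleate and is abundant in fat (r = 0.966, and 0.905 in the Cd2-low arrays). It was followed by Taf7, Fgf13, Rrs1 and Cxcr3, at 0.956, 0.944, 0.942 and 0.925. Scd1 measured 9.58, 9.93, 9.96, 11.22 and 11.07 in the intact group and 9.62, 10.30, 9.33, 8.76 and 8.81 in the deficient group. Like Car3, it was high on intact arrays 4 and 5 and low on deficient arrays 4 and 5, with overlap between the groups.

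The other genes of fat pathways were split in direction. Of 65 tested genes for lipid droplets, fat synthesis, uptake, transcription, adipokines and brown fat, 0 passed limma's adjusted threshold, 35 were lower and 30 higher, with a median of -0.03. At an unadjusted limma p under 0.05, 9 of the 65 were called, 7 lower and 2 higher. Over all 12670 genes tested, 366 were called in either direction and 1.33% were called lower. These lists too were chosen with earlier results of these data known. Among droplet genes 6 of 13 were lower. Plin2, a coat protein made by most lipid-laden cells, was 9.88 to 10.01 on the deficient arrays and 9.49 to 9.86 on the intact ones. Its difference was 0.33 (SE 0.09, limma adjusted p 0.999), and 0.13 (SE 0.12) with Xist as a covariate. It is printed as a gene of small p in its list, and the share of all genes with every deficient array above every intact one was not counted. Among synthesis genes 12 of 19 were lower, with Scd1 at -0.99 (SE 0.39), Pck1 at -0.38 and Gpd1 at -0.38. Without intact arrays 4 and 5 Scd1 was -0.46 and Gpd1 -0.21, with array weights they were -0.38 and -0.17, and in the Cd2-low arrays alone -0.53 and -0.17.

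Among uptake genes 3 of 8 were lower, with the scavenger receptor Cd36 at -0.53 (SE 0.17) and the carrier Fabp5 at 0.55. With array weights these were -0.35 and 0.31, and without intact arrays 4 and 5 Fabp5 was 0.32. Of 9 adipokine genes 4 were lower, with haptoglobin (Hp) at -1.05 (SE 0.28) and Nampt at 0.23, or 0.12 without WASP-deficient array 4 and 0.11 without intact arrays 4 and 5. The leptin gene Lep lay at 4.87 to 5.43, under the filter. Among transcription factors 7 of 11 were lower, Ebf1 at -0.31 (-0.18 with array weights and -0.53 with Xist as a covariate). Klf5 was higher at 0.21 (SE 0.08, limma adjusted p 0.999). Among brown fat genes 3 of 5 were lower. Cox8b, a respiratory chain subunit of brown fat and muscle, was 9.93 and 7.58 on intact arrays 4 and 5 and 5.83 to 6.92 elsewhere, while Elovl3, a fatty acid elongase, was 5.48 and 5.76 on those arrays, 8.60 on deficient array 1 and 9.24 to 10.61 elsewhere. Brown fat genes Ucp1 and Cidea lay under the filter at 5.07 to 5.99 and 4.73 to 5.64.

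Markers of other cells were read on the same arrays. The summed fibroblast markers (linear intensity) were 8484 to 10625 on the Cd2-high arrays and 5372 to 8168 on the Cd2-low arrays, and 6 of 6 tested were lower in value in the deficient group. Dcn, a collagen-binding fibroblast protein, was 11.13 and 11.38 on intact arrays 4 and 5, 10.54 on deficient array 1 and 9.03 to 10.41 on the others. Fat progenitor markers were 7890 to 10166 on the Cd2-high arrays and 3068 to 4846 on the others, but Dpp4, which T cells also make, gave 75.2 to 76.2% of that sum on the former and 53.9 to 66.7% on the latter. Without Dpp4, a choice made after seeing the data, the sums were 1958 to 2482 and 1215 to 1760. Pdgfrb, a receptor of progenitors and pericytes, overlapped between the Cd2 groups, with 9.54 on deficient array 1 and 9.79 on deficient array 5. Skeletal muscle markers summed to 21182 on intact array 4 and to 1093 to 1226 on all others; Myl1, a muscle myosin chain, was 10.84 on that array against 4.62 to 5.12. Cardiac muscle markers summed to 1648 on both intact arrays 4 and 5 and to 1042 to 1250 on the others, and Actc1, a cardiac actin, was 8.56 on intact array 5, its highest array. Car3, Lpl and Plin4, which muscle also makes, were highest on intact array 4 and next highest on intact array 5. The fat-restricted Adipoq had the same order, and Plin1, Cidec and Retn were highest on intact array 5 and next highest on intact array 4. Macrophage markers were 7426 to 10281 in the intact group and 6816 to 11887 in the deficient group, 11 of 12 being higher in value in the deficient group. No marker of these lists passed limma's test between genotypes, and the part of these cells in the members' differences was not tested.

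**Figure D4:**
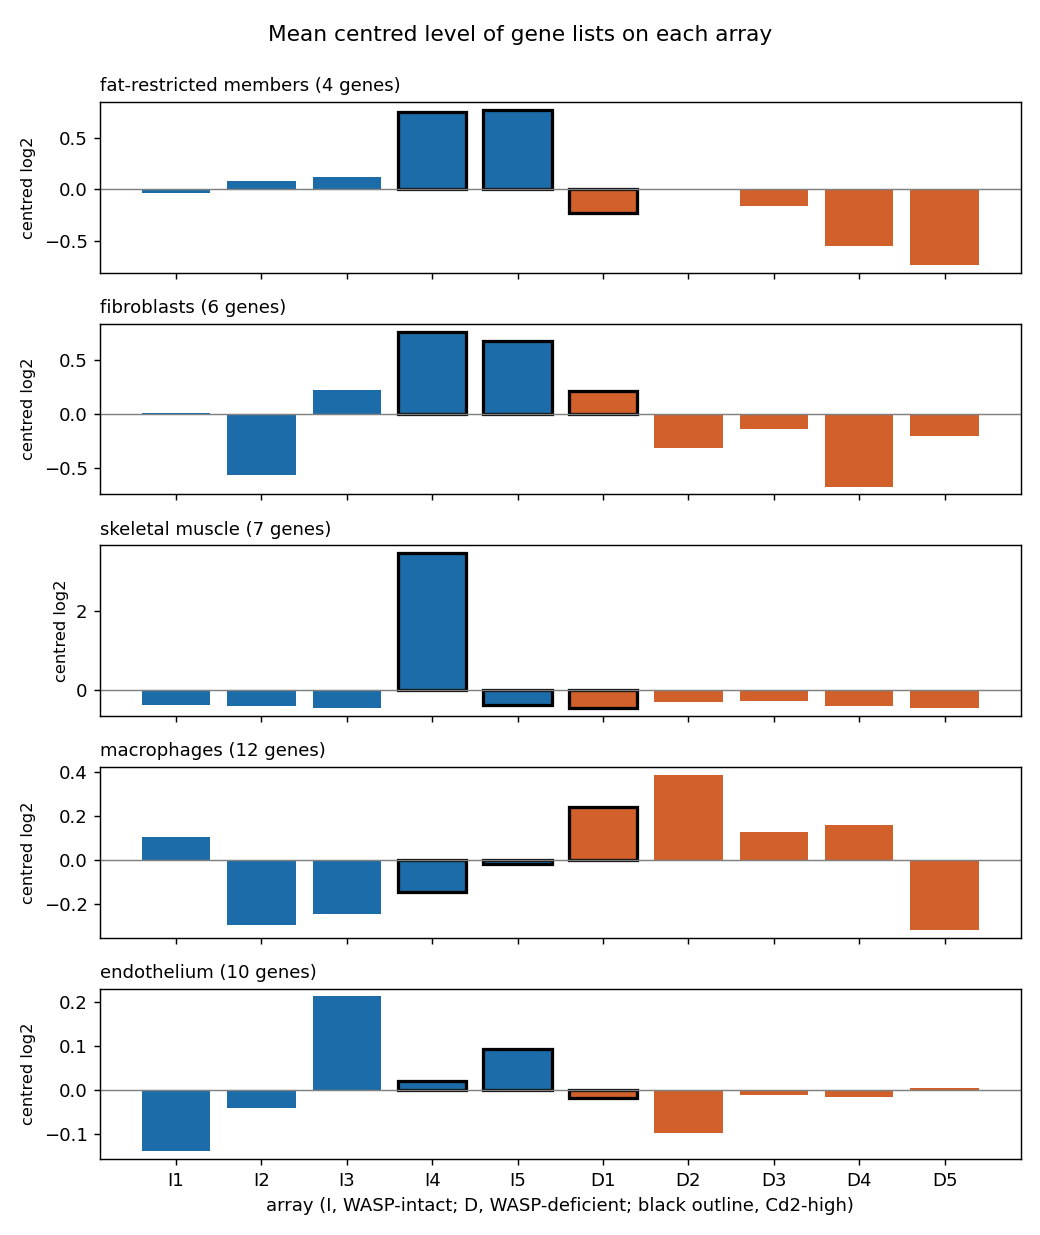
Mean centred log2 level of the fat-restricted members and of 4 marker lists on each array (I, intact; D, deficient; black outline, Cd2-high), with bars from 0. WASP-intact array 4 stands alone for skeletal muscle (3.46), and intact arrays 4 and 5 are highest for the fat-restricted members and fibroblasts.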

How the data were processed

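The deposited series values are linear probe set intensities, which the authors normalized with RMA per the submitters' processing notes; log2 was taken here. The labels name no slide or scan batch. The platform annotation, which can be old, lists 22961 of the 34760 probe sets, of which 21640 carry a single symbol and 1321 more than 1. Where a gene had several probe sets, the one with the highest mean was used. Genes below the 40th percentile of mean log2 intensity over all probe sets (6.35) were removed, leaving 12670. Genotypes were compared with limma 3.58.1 in R 4.3.3, Benjamini-Hochberg adjusted over all genes, and with exact two-sided permutation of arrays, which cannot go below 0.00794. The labels call the replicates biological. Members, lists and the Cd2 cut of 9 were chosen with earlier results of these data known. Named genes were the members, genes that check the labels, the 3 of smallest p in each pathway list, the 3 of widest range in each marker list, the 10 outside the members most like the fat-restricted mean and the 5 most like Car3; those printed are some of these, and Ucp1, Cidea and Lep were added as defining markers under the filter. Other normalizations, filters, blocks and left-out arrays are given at the end. Promoter windows are from RefSeq, GRCm38.p6. Figures used matplotlib 3.10.9 in Python 3.11.15.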

Additional observations from a re-analysis of the deposited data

Results flagged for a closer look

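In 98 groups of 5 arrays screened, 4 values stood apart from the other 4 by more than the 95% critical value, and chance alone marks about 1 in 20 groups. Plin4 on WASP-deficient array 4 was 6.50, below the other deficient arrays at 6.82 to 6.90. Nampt on the same array was 10.11, above the others at 9.45 to 9.63. The skeletal muscle marker mean (log2, centred) reached 3.46 in the fourth WASP-intact tumour, where the rest of its group spanned -0.44 to -0.37. The endothelium marker mean was -0.10 on WASP-deficient array 2, against -0.02 to 0.00 on the other deficient arrays.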

How the results depend on the processing

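Over 22 alternatives 0 members passed the adjusted threshold, and their median difference stayed between -0.45 and -0.30. Of 192 member values under alternatives, 177 kept direction and side of the threshold and 15 changed direction. Adipoq ranged from -1.19 to -0.75. Over all genes, where 1 (Was) passed, 0 passed with the replicate number as a block and 0 with Xist as a covariate, 2 with only the Cd2-low arrays, and 1 to 4 with 1 array left out (4 without WASP-intact array 3, 2 without WASP-deficient array 1). The replicate numbers did not pair the samples (same-numbered correlations -0.714 to 0.366, over 0.1 in 2 of 5). With 1 array left out, 0 to 7 members lay apart across the Cd2 split (7 without WASP-deficient array 1, 1 without WASP-intact array 3). With Xist as a covariate the differences of Retn, Lpl, Pparg, Nampt, Fabp3 and Elovl3 were 0.0317, 0.43, -0.15, -0.0101, 0.0614 and -0.82. With only the Cd2-low arrays those of Lpl, Pparg and Elovl3 were 0.27, -0.0826 and -0.16, and without both WASP-intact arrays 4 and 5 they were 0.35, -0.0241 and -0.41. Lpl was 0.25 with array weights. With 1 array left out, Lpl ranged from -0.37 to 0.12 and Pparg from -0.0581 to 0.0612. The cause was not tested. The number of arrays limits the precision, and the filter at the 60th percentile kept only Fabp4, Car3 and Pparg of the members.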
